A study of Mus musculus with 4 samples.

Results

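The 9 genes described here encode the proteins through which cells take up retinol, carry retinoic acid and read it out in the nucleus: the uptake gene Stra6, the binding protein genes Crabp1 and Crabp2, the retinoic acid receptor genes Rara, Rarb and Rarg, and the retinoid X receptor genes Rxra, Rxrb and Rxrg. They were chosen by name, and all 9 were found among the 34866 genes of the table. They were measured in otic vesicles, the epithelial sacs that form the inner ear, of mouse embryos of the C57/BL6 strain on embryonic day 11.5. The samples were 2 libraries of Meis2 mutants (KO 1 and KO 2) and 2 wild-type libraries (WT 1 and WT 2), and the study asked which genes differ when Meis2, a homeodomain transcription factor gene, is mutated. The labels state neither the allele, nor the tissues in which it is deleted, nor the number of embryos in a library, so part of the spread that the tests rest on may be technical.

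Retinoic acid is made from retinol inside cells. Retinol circulates bound to a carrier, and STRA6 is a membrane receptor that lets it pass into the cell. CRABP1 and CRABP2 bind retinoic acid in the cytoplasm; CRABP2 is known to hand it to the receptors in the nucleus, and CRABP1 is commonly linked to its breakdown. A retinoic acid receptor binds DNA as a pair with a retinoid X receptor, on repeated half-sites, and switches nearby genes on when retinoic acid is bound. Rarb is itself a well-known target of this pathway. In the developing ear, both too much and too little retinoic acid are known to disturb morphogenesis.

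Levels are TPM (transcript abundance scaled by length and to a fixed total in each library), so levels of different genes can be set side by side. The sequencing depth cannot be read from TPM and is unknown. Differences are KO minus WT, taken by limma from log2(TPM + 1) and given with a standard error (SE); the added 1 TPM makes changes of low genes look smaller. Meis2 itself was at 73.2 TPM in KO 1 and 76.6 TPM in KO 2, against 79.0 TPM in WT 1 and 88.7 TPM in WT 2. Since the deleted part is not given, this level does not check the genotype labels. All 7 otic epithelium markers (Oc90, Pax2, Pax8, Epcam, Cdh1, Fbxo2 and Sox10) were detected in every library, together with markers of periotic mesenchyme, neurons and blood, so the libraries hold several cell types. Fewer cells of a type and less RNA per cell cannot be told apart in such samples. The libraries also differed within a genotype. The summed level of 6 neuron markers was 200 and 641 TPM in KO 1 and KO 2, against 244 and 457 TPM in WT 1 and WT 2, and that of 5 erythroid markers was 9243 and 10652 TPM in KO, against 7849 and 18689 TPM in WT. Endothelial markers summed to 110 to 138 TPM in KO and 115 to 128 TPM in WT, and macrophage markers to 25.6 to 37.3 TPM in KO and 25.0 to 28.9 TPM in WT, so both overlapped.

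The 9 genes spanned a wide range of levels. All 9 passed the filter for testing, a mean level of 1 TPM or more, as did 14496 genes in all. Crabp1 and Crabp2 were by far the most abundant of the 9 in each library, at ranks 374 and 393 of the tested genes by mean level. Their order switched between libraries, with Crabp1 ahead in KO 1 and WT 1 and Crabp2 ahead in KO 2 and WT 2. Rxrb and Rarg came next and also changed places, since Rarg was ahead in KO 1 only. Rxra and then Rara followed in every library. Stra6, Rxrg and Rarb were the lowest. Rarb was the lowest of all in KO 2, WT 1 and WT 2, and Rxrg in KO 1.

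**Figure D1:**
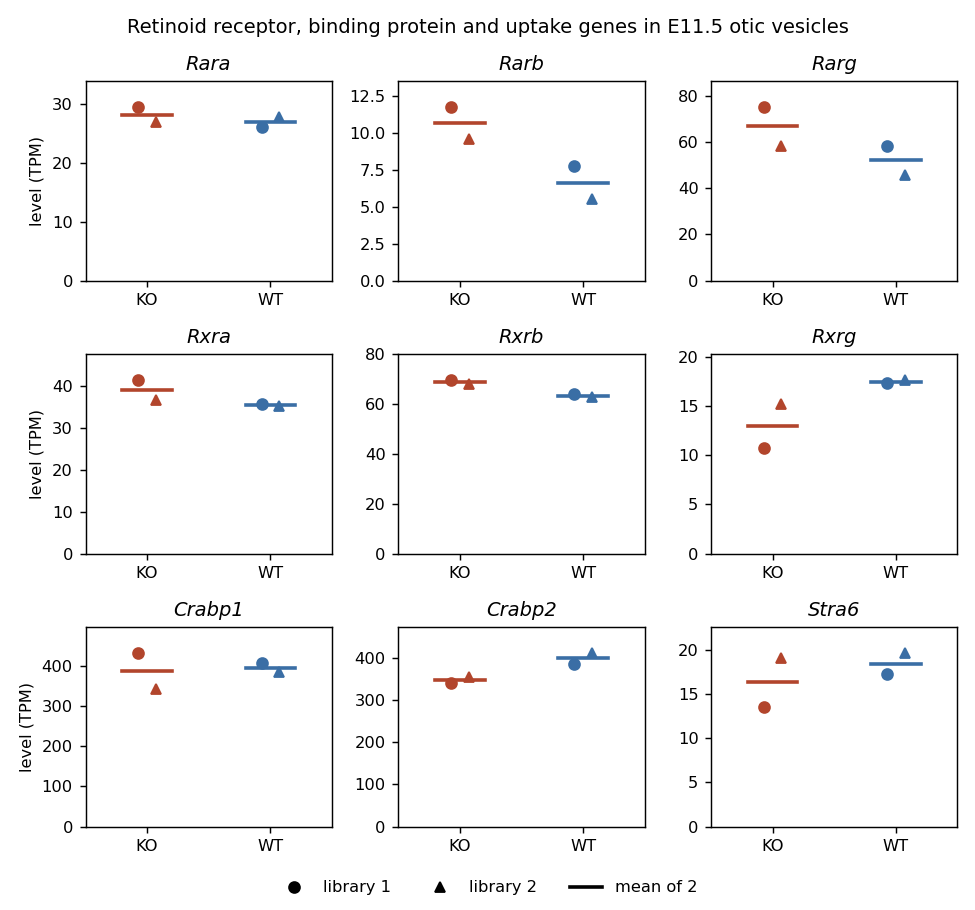
Level (TPM, linear axis from 0) of each of the 9 genes in the KO libraries on the left and the WT libraries on the right of each panel; circles are library 1, triangles library 2 and bars the mean of 2. Both KO points of Rarb, at 11.8 and 9.57 TPM, lie above both WT points, and both KO points of Rxrg and Crabp2 lie below both WT points.

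None of the 9 genes passed the threshold between the genotypes. With limma, 0 of 9 had an adjusted p under 0.05, against 0% of all 14496 genes tested. At an unadjusted p under 0.05 there were 2 of the 9, Rarb and Crabp2, against 3.50% of all genes tested. The KO libraries lay above both WT libraries for 4 of the 9 (Rarb, Rarg, Rxra and Rxrb), against 19.2% of all genes, and below both for 2 (Rxrg and Crabp2), against 10.5%. In either direction this makes 6 of the 9, against 29.8% of all genes. With 9 genes chosen by name and 2 libraries per genotype, these shares are a description. The median log2 difference was 0.06 over the 9 and 0.03 over all genes tested. For a single gene, the smallest two-sided p that an exact permutation test could reach with these 4 libraries is 0.333.

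Stra6, the uptake gene (ENSMUSG00000032327.14, chromosome 9, 58063788 to 58153996, GRCm38), was at 13.6 TPM in KO 1 and 19.1 TPM in KO 2, against 17.2 TPM in WT 1 and 19.6 TPM in WT 2. KO 1 was the lowest library, while KO 2 lay between the WT libraries, so the genotypes overlapped. The log2 difference was -0.18 (SE 0.19; 95% interval from -0.67 to 0.31; limma adjusted p = 1.00), and it was 0.049 without KO 1. The annotated span of Stra6 overlaps Ccdc33 on the other strand, which stood at 0.671 to 2.52 TPM. The labels do not say whether reads were assigned by strand.

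Crabp1 (ENSMUSG00000032291.8, chromosome 9, 54764748 to 54773110) was at 432 TPM in KO 1 and 343 TPM in KO 2, against 406 TPM in WT 1 and 384 TPM in WT 2. The KO libraries were the highest and the lowest of the 4, and the WT libraries lay between them. On the log2 scale Crabp1 differed by -0.04 (SE 0.13; 95% interval from -0.37 to 0.30; limma adjusted p = 1.00). The spread within KO was 62.7 TPM and the spread within WT 15.5 TPM (SD, n = 2 each), both larger in size than the difference of -7.70 TPM between the genotype means, KO minus WT.

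Crabp2 (ENSMUSG00000004885.5, chromosome 3, 87948666 to 87953376) was at 342 TPM in KO 1 and 355 TPM in KO 2, against 387 TPM in WT 1 and 412 TPM in WT 2. Both KO libraries were lower than both WT libraries. Means were 348 ± 9.22 TPM in KO and 399 ± 17.9 TPM in WT (SD, n = 2 each), a change of -12.8% in KO. This is a log2 difference of -0.20 (SE 0.071; 95% interval from -0.38 to -0.01; limma adjusted p = 1.00). The sum of the 2 Crabp genes was 774 and 698 TPM in KO and 793 and 796 TPM in WT. The otic epithelium markers moved the same way: their summed level was 917 and 983 TPM in KO and 1323 and 1133 TPM in WT, with 6 of 7 lower in KO by mean, and none was at 0. Set per 1000 TPM of those 7 markers, a ratio chosen after the values were seen, Crabp2 stood at 373 and 361 in KO and at 292 and 364 in WT, which overlapped. Most of that marker sum was Oc90, at 561 and 602 TPM in KO and at 912 and 724 TPM in WT. The ratio therefore mainly set Crabp2 against Oc90. The part of the epithelial share in the Crabp2 difference was not tested.

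Among the retinoic acid receptor genes, Rarg was the most abundant, Rara came second and Rarb was the least abundant in all 4 libraries. Rarg and Rarb were higher in both KO libraries than in both WT libraries, and Rara overlapped. Rara (ENSMUSG00000037992.16, chromosome 11, 98927818 to 98974942) was at 29.5 TPM in KO 1 and 26.9 TPM in KO 2, against 26.2 TPM in WT 1 and 27.9 TPM in WT 2. KO 2 and WT 2 stood against the order of the means, and the log2 difference was 0.06 (SE 0.095; 95% interval from -0.19 to 0.31; limma adjusted p = 1.00).

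Rarg (ENSMUSG00000001288.15, chromosome 15, 102234938 to 102257517) was at 75.3 TPM in KO 1 and 58.6 TPM in KO 2, against 58.4 TPM in WT 1 and 45.9 TPM in WT 2. KO 1 was well above the others and WT 2 well below, while KO 2 and WT 1 differed by only 0.138 TPM. Rarg differed by 0.35 on the log2 scale (SE 0.18; 95% interval from -0.11 to 0.82; limma adjusted p = 1.00). It was 0.17 without KO 1 and 0.18 without WT 2.

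Rarb (ENSMUSG00000017491.9, chromosome 14, 16430839 to 16819156) had the largest difference of the 9. It was at 11.8 TPM in KO 1 and 9.57 TPM in KO 2, against 7.74 TPM in WT 1 and 5.50 TPM in WT 2. Both KO libraries were higher than both WT libraries, and the number 1 library was the higher one in each genotype. Means were 10.7 ± 1.55 TPM in KO and 6.62 ± 1.58 TPM in WT (SD, n = 2 each), a ratio of 1.61. The log2 difference was 0.62 (SE 0.20; 95% interval from 0.08 to 1.16; limma adjusted p = 1.00), and 2.86% of the tested genes had a larger one in either direction. Without WT 2 it was 0.41. The far end of Rarb overlaps the end of Top2b on the other strand, a gene that stood at 171 and 171 TPM in KO and at 175 and 164 TPM in WT, so reads in that overlap cannot be told apart without strand.

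Rarb is known to be switched on by retinoic acid through a repeated half-site in its promoter, and the RefSeq start-site window of Rarb (GRCm38.p6, chr14:16575427-16575726, minus strand) is shown because this element can be read in it. The window runs from 250 bases before the start site to 50 after, 5′ to 3′ on the gene's strand. It lies inside the annotated span of Rarb and not at its upstream end. The gene-level TPM do not separate start sites, so the Rarb difference cannot be tied to this window. Capitals mark the 2 half-sites of a direct repeat with a gap of 5 (DR5) and, after them, the Meis core TGACAG. A DR5 with other letters, read on the strand opposite to the gene, was found in the window of Cyp26a1, which encodes an enzyme that degrades retinoic acid (chr19:37697776-37697792), and both repeats are set below the window.
Rarb window: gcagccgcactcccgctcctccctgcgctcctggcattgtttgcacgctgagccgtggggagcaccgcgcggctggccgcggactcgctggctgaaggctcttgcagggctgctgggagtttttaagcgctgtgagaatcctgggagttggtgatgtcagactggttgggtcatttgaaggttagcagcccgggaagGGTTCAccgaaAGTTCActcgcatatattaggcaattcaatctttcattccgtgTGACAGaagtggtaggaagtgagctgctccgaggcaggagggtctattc
Rarb repeat: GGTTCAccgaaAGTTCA
Cyp26a1 repeat: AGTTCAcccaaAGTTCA

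A half-site was searched as AGGTCA, as AGTTCA, as GGGTCA and as GGTTCA, on both strands. The Rarb repeat lay at positions -53 to -37, counted with the start site as position 0. A DR5 was present in 0.0974% of all 32851 windows and in 1 of the 18 windows of the group. Counted by gene, it was in 0.115% of all genes with a window, in 1 of the 8 such genes of the group (Rarb), and in 2 of the 55 such retinoid genes, Rarb and Cyp26a1. The Rarb element was known beforehand and its half-sites are among those searched, so these counts do not measure an enrichment in the group. Direct repeats with gaps of 1 (DR1) or 2 (DR2) were in 0.222% and 0.268% of all windows and in none of those of the group. TGACAG, which begins at position 1 of the Rarb window, was in 19.2% of all windows and in 3 of the 18 of the group, 1 each of Rara, Rarb and Rxrb. By gene, TGACAG was in 21.6% of all genes with a window and in 3 of the 8 of the group. A match is a run of letters and not a measured binding site. The genes with a window were all of the group but Crabp2. Cyp26a1, named here for its repeat after its values were seen, was at 113 and 93.3 TPM in KO and at 128 and 111 TPM in WT, with the genotypes overlapping.

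By the distance between deviations of log2(TPM + 1) over the 4 libraries, the 3 coding genes most like Rarb were Dab1 (0.074), Zic1 (0.076) and Cldn11 (0.085), among 10873 candidates with a mean of at least 5 TPM, and 16 lay within a distance of 0.2. Zic1, a zinc finger transcription factor gene, was at 146 and 129 TPM in KO and at 106 and 77.2 TPM in WT. With 4 libraries such likeness is a description. Zic1 stands in the hindbrain marker list, whose summed level was 258 and 208 TPM in KO and 186 and 140 TPM in WT. Of its 6 genes 3 were higher in KO by mean, the 3 that were tested, while Olig3 was at 0 in KO 2 and at most 0.16 TPM elsewhere. The periotic mesenchyme markers were higher in KO by mean in 6 of 7, none was at 0, and their summed level was 1081 and 741 TPM in KO against 817 and 710 TPM in WT, which overlapped. Per 1000 TPM of the mesenchyme markers, a ratio chosen after the values were seen, Rarb stood at 10.9 and 12.9 in KO and at 9.47 and 7.75 in WT, which did not overlap. By the same ratio Rarg stood at 69.7 and 79.0 in KO and at 71.5 and 64.7 in WT, which overlapped. Crabp1, which overlapped in TPM, stood at 400 and 463 in KO and at 497 and 542 in WT by this ratio, lower in both KO libraries. The largest part of the mesenchyme sum was Col3a1, a collagen gene, at 467 and 283 TPM in KO and at 327 and 280 TPM in WT. All of these ratios therefore lean on Col3a1, which was highest in KO 1, and none was taken without it. The part of the mesenchyme and hindbrain markers in the Rarb, Rarg and Crabp1 differences was not tested.

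**Figure D2:**
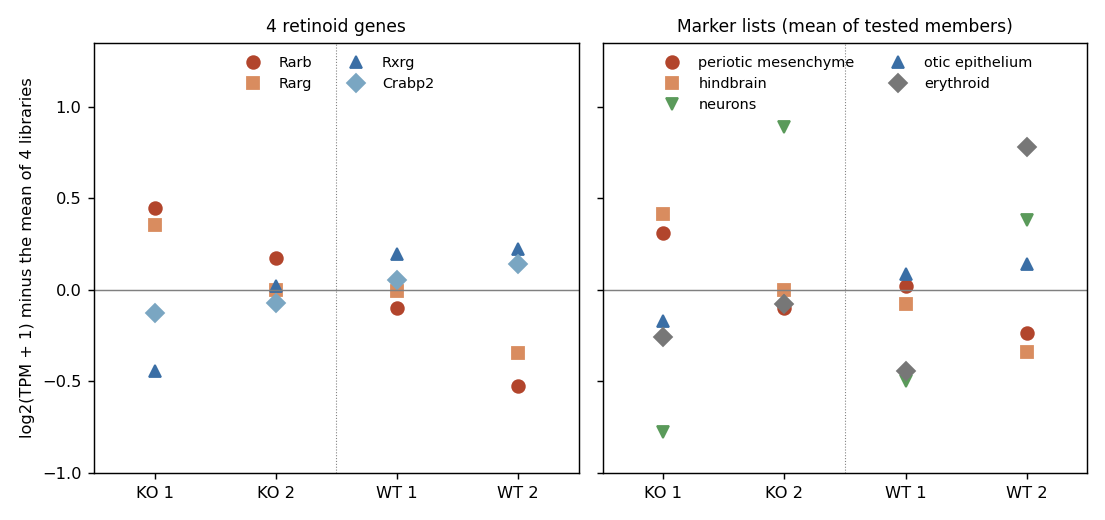
Deviation of log2(TPM + 1) from the mean of the 4 libraries for 4 of the genes (left) and for the mean of the tested members of 5 marker lists (right), with KO libraries left of the dotted line and WT libraries right of it. Rarb is highest in KO 1 (0.45) and lowest in WT 2 (-0.53), and the hindbrain list, led by Zic1, has the same order of libraries.

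The summed level of the 3 Rar genes was 117 TPM in KO 1 and 95.1 TPM in KO 2, against 92.3 TPM in WT 1 and 79.4 TPM in WT 2. Rarb made up 10.1% of the sum in each KO library, against 8.38% in WT 1 and 6.93% in WT 2. Rarg made up 64.6% and 61.6% in KO and 63.3% and 57.9% in WT, and Rara 25.3% and 28.3% in KO and 28.3% and 35.2% in WT. Of these shares, that of Rarb was higher in both KO libraries than in both WT libraries, and those of Rarg overlapped. The Rara share was lower in both KO libraries, though KO 2 and WT 1 were nearly equal.

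Of the retinoid X receptor genes, Rxrb and Rxra were slightly higher in both KO libraries than in both WT libraries, and Rxrg was lower, and the 95% interval of each difference included 0. Rxrb (ENSMUSG00000039656.16, chromosome 17, 34031812 to 34038399) was at 69.6 TPM in KO 1 and 68.1 TPM in KO 2, against 63.9 TPM in WT 1 and 62.6 TPM in WT 2. The groups were tight and separate, at 68.8 ± 1.09 TPM in KO and 63.3 ± 0.925 TPM in WT (SD, n = 2 each), a change of 8.80% in KO. Its log2 difference was 0.12 (SE 0.067; 95% interval from -0.06 to 0.30; limma adjusted p = 1.00), within 0.10 to 0.14 when each library was left out. Rxra (ENSMUSG00000015846.14, chromosome 2, 27676440 to 27762957) was at 41.4 TPM in KO 1 and 36.6 TPM in KO 2, against 35.8 TPM in WT 1 and 35.2 TPM in WT 2. Only KO 1 stood clearly above the rest. Rxra differed by 0.13 on the log2 scale (SE 0.093; 95% interval from -0.12 to 0.38; limma adjusted p = 1.00), and 0.04 without KO 1.

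Rxrg (ENSMUSG00000015843.10, chromosome 1, 167598384 to 167639623), the RXR gene known for its restricted range of tissues, was at 10.8 TPM in KO 1 and 15.2 TPM in KO 2, against 17.4 TPM in WT 1 and 17.7 TPM in WT 2. Both KO libraries were lower than both WT libraries, with KO 1 the lowest by far. Means were 13.0 ± 3.18 TPM in KO and 17.5 ± 0.237 TPM in WT (SD, n = 2 each), a change of -25.8% in KO. The log2 difference was -0.42 (SE 0.18; 95% interval from -0.90 to 0.06; limma adjusted p = 1.00). Without KO 1 it was -0.19, and without KO 2 it was -0.66.

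The lower Rxrg level stood beside the lower otic epithelium markers given above. Per 1000 TPM of those markers, again a ratio chosen after the values were seen, Rxrg was at 11.7 and 15.5 in KO and at 13.1 and 15.6 in WT, which overlapped. As Oc90 made up most of that sum, the ratio mainly set Rxrg against Oc90, and none was taken without Oc90. Per 1000 TPM of the neuron markers, all 6 of which were above 0 in every library and higher in KO by mean, Rxrg was at 53.8 and 23.8 in KO and at 71.1 and 38.7 in WT, which overlapped. The genes with the pattern nearest to Rxrg were Sbsn (0.059), Chrna4 (0.090) and Adamts19 (0.12), and 21 genes lay within 0.2. Chrna4, a nicotinic acetylcholine receptor subunit gene, was at 8.55 and 11.4 TPM in KO and at 12.7 and 13.6 TPM in WT. The 5 skeletal muscle markers, a tissue in which Rxrg is known to be expressed, summed to 16.6 and 19.5 TPM in KO and to 19.6 and 24.1 TPM in WT, with 2 of 5 higher in KO by mean and Myod1 at 0 in KO 2. The part of the epithelial, neuron and muscle shares in the Rxrg difference was not tested.

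The summed level of the 3 Rxr genes was 122 and 120 TPM in KO and 117 and 116 TPM in WT, a narrower range than that of the Rar genes, while Rxrg made up 8.83% and 12.7% of it in KO and 14.8% and 15.3% in WT. The Rxrb share was 57.2% and 56.8% in KO and 54.6% and 54.2% in WT. The ratio of the Rar sum to the Rxr sum was 0.958 and 0.793 in KO and 0.789 and 0.687 in WT. KO 2 and WT 1 were nearly equal in that ratio, so it was KO 1 and WT 2 that lay apart.

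**Figure D3:**
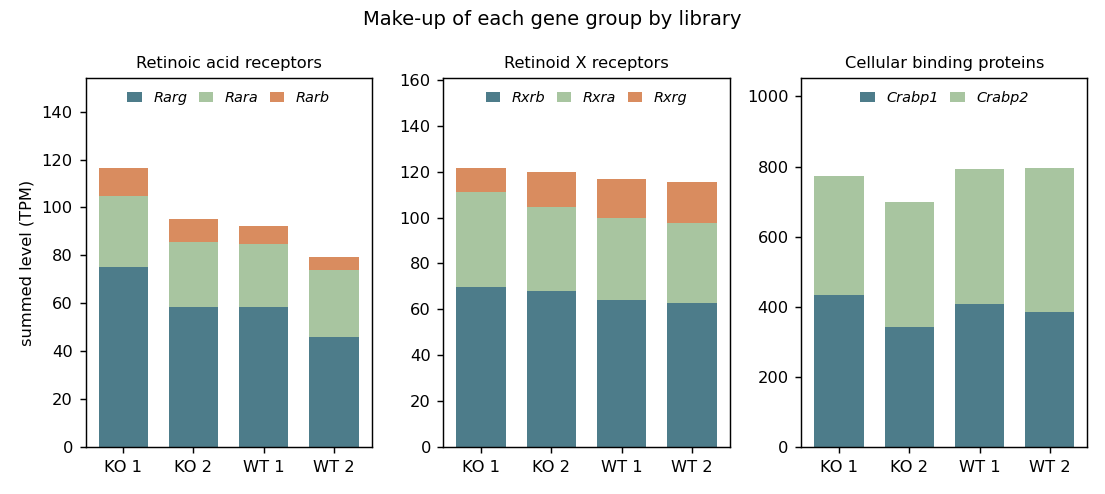
Summed level (TPM, linear axis from 0) of the Rar, Rxr and Crabp genes in each library, with KO libraries on the left and each bar split by gene. The Rxr bars are of nearly equal height, from 116 to 122 TPM, while their Rxrg part is smallest in KO 1, and the Rar bars range from 79.4 to 117 TPM.

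**Figure D4:**
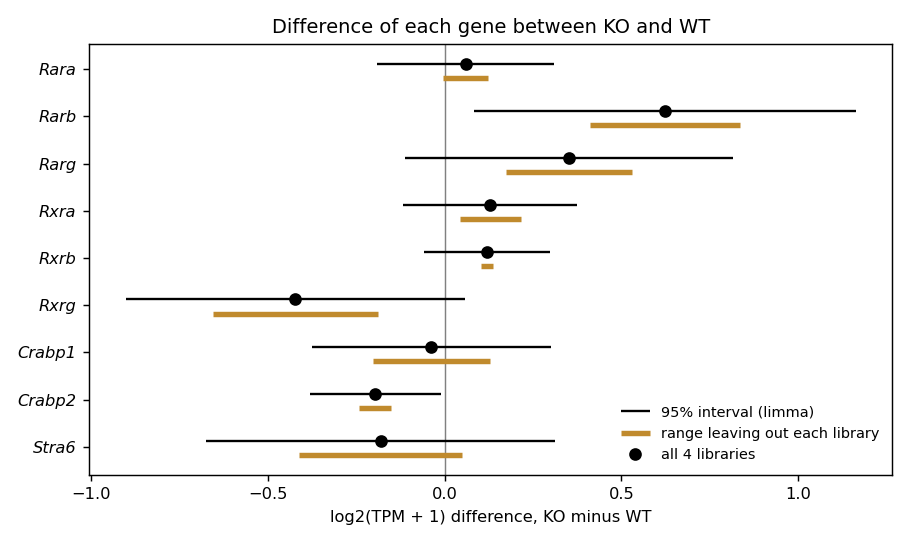
Difference of each gene in log2(TPM + 1) between KO and WT, KO minus WT: black points are the values from all 4 libraries with their 95% limma interval, and the lower bars give the range when each library was left out. The intervals of Rarb and Crabp2 do not reach 0, and the leave-one-out ranges of Rara, Crabp1 and Stra6 cross it.

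The other genes of the pathway were read from lists by role, and 0 of their members passed the limma threshold, against 0% of all genes. In retinol transport and storage 5 of 10 genes were tested, 1 higher and 4 lower in KO, with a median log2 difference of -0.13. Fabp5, a fatty acid binding protein that can also carry retinoic acid, was at 215 and 270 TPM in KO and at 240 and 294 TPM in WT, which overlapped. Rbp4, the carrier of retinol in blood, was at 1.63 and 1.46 TPM in KO and at 1.77 and 1.85 TPM in WT.

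The differences of synthesis and degradation enzymes spanned -1.26 to 0.68 over 11 tested genes of 12 listed, against -0.42 to 0.62 over the 9. Of these enzymes 4 were higher and 7 lower, with a median of -0.05. Both KO libraries lay below both WT libraries for 3 of the 11, against 10.5% of all genes, and above them for 1, against 19.2%. Cyp26c1, a degrading enzyme, was at 80.9 and 77.1 TPM in KO and at 125 and 142 TPM in WT. Aldh1a2, a synthesizing enzyme, was at 2.89 and 3.39 TPM in KO and at 8.56 and 9.24 TPM in WT. Aldh1a1, also a synthesizing enzyme, was at 8.49 and 5.53 TPM in KO and at 9.73 and 10.9 TPM in WT. Aldh1a3, the synthesizing enzyme above both WT libraries, named after its values were seen, was at 22.0 and 24.4 TPM in KO and at 19.9 and 9.94 TPM in WT. Each had a limma adjusted p of 1.00.

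Co-regulators, which receptors recruit to switch genes on or off, had differences of -0.08 to 0.20. All 15 were tested, 12 were higher and 3 lower, and the median was 0.08, where 61.6% of all genes tested were higher. Med1, a Mediator subunit, was at 32.7 and 34.0 TPM in KO and at 30.0 and 31.3 TPM in WT. Hdac3, the deacetylase of the co-repressor complex, was at 125 and 119 TPM in KO and at 118 and 110 TPM in WT. Both KO libraries lay above both WT libraries for 5 of the 15, Med1 and Hdac3 among them, against 19.2% of all genes. They lay below both for 1, against 10.5%.

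Of the other nuclear receptors that pair with RXR, 7 of 11 were tested, 4 higher and 3 lower (median 0.15). The thyroid hormone receptor gene Thra was at 51.7 and 48.6 TPM in KO and at 47.4 and 41.0 TPM in WT, and Thrb at 0.976 and 0.861 TPM in KO and at 2.53 and 1.14 TPM in WT. Ppard, a fatty acid-sensing receptor, was at 20.1 and 20.0 TPM in KO and at 17.1 and 19.0 TPM in WT. Among the orphan receptors that bind direct repeats all 5 were tested, 3 higher and 2 lower (median 0.01). Nr2f6 was at 64.5 and 65.8 TPM in KO and at 69.1 and 84.1 TPM in WT. The COUP-TF genes Nr2f1 and Nr2f2 overlapped between genotypes. Nr2f1 was at 267 and 288 TPM in KO and at 232 and 275 TPM in WT, and Nr2f2 at 149 and 87.0 TPM in KO and at 121 and 101 TPM in WT.

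Genes known as retinoic acid targets, other than Rarb, Crabp2 and Stra6, were split. Of 16 listed 8 were tested, 4 higher and 4 lower, with a median of 0.01, and the 5 Hox genes of the list were below the filter. Tbx1, a T-box transcription factor gene of the otic epithelium, was at 60.4 and 71.2 TPM in KO and at 72.7 and 78.3 TPM in WT. Dhrs3, which encodes an enzyme that turns retinaldehyde back to retinol, was at 22.8 and 18.3 TPM in KO and at 18.4 and 10.2 TPM in WT, and KO 2 lay just below WT 1. Its log2 difference was 0.54 (SE 0.29; limma adjusted p = 1.00).

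**Figure D5:**
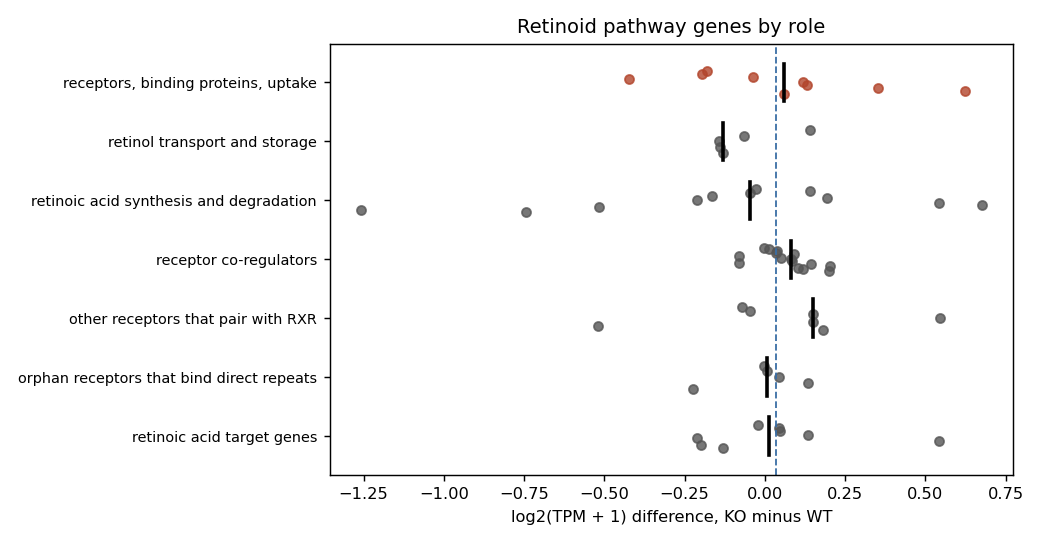
Log2(TPM + 1) difference, KO minus WT, of the 9 genes (top row) and of the tested genes in each list of retinoid genes by role; points are genes, black bars list medians, and the dashed line the median of all genes tested, 0.03. The enzyme list spreads from -1.26 to 0.68, while the co-regulators lie within -0.08 to 0.20.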

How the data were processed

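The authors deposited gene-level TPM, 1 column per library, each summing to 1000000; per the submitters' processing notes Salmon 0.9.1 and the build GRCm38 were used, while the annotation release and the summing over transcripts are not stated there. TPM keeps no depth, so no counting interval is given. Gene IDs were matched by number to GENCODE M21 (GRCm38), which named 34652 of 34866. Tests used limma 3.58.1 (R 4.3.3) for genes averaging 1 TPM or more, on log2(TPM + 1) with a single genotype term, a mean-variance trend and two-sided p-values, adjusted by Benjamini-Hochberg over 14496 genes at a threshold of 0.05. The fit was tested on simulated data. Values are mean ± SD of 2 libraries. Start-site windows are from RefSeq (GRCm38.p6) and were searched as exact letters.

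The members, gene lists and tests were chosen with earlier results of these data known. All 9 genes are named, and of each other list the 3 tested genes with the smallest p, some of which are not reported here. Marker lists are given as summed TPM. Alternatives were other pseudocounts, filters and scalings, a replicate block, leaving out mitochondrial and globin genes, and leaving out each library.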

Additional observations from a re-analysis of the deposited data

How the results depend on the processing

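No gene of the group passed the threshold under any of the 12 alternatives, and 104 of 108 values kept their direction. The exceptions arose when a library was left out. These 4 fits keep 1 library of a genotype, which is assumed to vary like the other genotype, whose 2 libraries alone give the spread. Over them Rara ranged from -0.0047 to 0.12, Crabp1 from -0.20 to 0.13 and Stra6 from -0.41 to 0.049. Over all genes, the count past the threshold was 0 under each other alternative run and ranged from 0 to 10 when a library was left out (2 without KO 1, 10 without KO 2), beside 507 genes at an unadjusted p under 0.05 with all 4 libraries and 336 to 735 with 1 left out. The Rarb difference ranged from 0.43 (pseudocount of 5 TPM) to 0.69 (0.1 TPM) over the 8 other settings, and the Rxrg difference from -0.46 to -0.33. Over the same settings Rxrb ranged from 0.09 to 0.12, Rxra from 0.08 to 0.13 and Rara from 0.008 to 0.06. Their low ends came with median-of-ratios scaling (Rxrb) or quantile normalization (Rxra and Rara). The median over all genes tested was 0.006 and 0.0008 under these, against 0.03 in the main fit. The KO minus WT difference in the Rarb share of the Rar sum, 2.42 percentage points, ranged from 1.70 to 3.15 when a library was left out. The replicate numbers in the titles are not stated to pair the libraries; over genes, KO 1 and WT 1 deviated from their genotype means with a correlation of 0.423. With a replicate block the limma adjusted p was 0.52 for Rarb and also for Rarg. In that fit 0 genes passed, with 1178 at an unadjusted p under 0.05. Between equal numbers Rarb differed by 0.55 and 0.70, Rarg by 0.36 and 0.34, Crabp2 by -0.18 and -0.21 and Rxrg by -0.64 and -0.20. Rara (0.17 and -0.05) and Crabp1 (0.09 and -0.16) changed direction between the numbers. The depth of the libraries is unknown, and 2 per genotype limit the precision.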
